A study of Caenorhabditis elegans with 3 samples.

Results

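The Hedgehog-related and patched-related genes of the nematode Caenorhabditis elegans were examined as 1 family list of 80 genes, out of 17118 genes that had a probe set of their own on the array. They were chosen by name alone, as the genes called grl (ground-like), grd (groundhog), wrt (warthog), hog, qua (quahog), ptr (patched-related) or ptc (patched) with a number. The list holds 30 grl, 12 grd, 10 wrt, 24 ptr and 2 ptc genes, besides hog-1 and qua-1. The RefSeq gene table holds 88 such names. The 8 without a probe set of their own were grd-4, grd-6, grd-13, grd-15, grd-17, grl-26, grl-32 and ptc-2.

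RNA came from whole larvae of the wild-type strain N2 (Bristol), given as first larval stage (L1), and each group was 1 Affymetrix array. The groups were larvae held at 30 °C for 24 h (heat shock), larvae jetted as droplets from a needle held at high voltage (bio-electrospray) and untreated larvae (control). All larvae came from parents kept at 20 °C on Escherichia coli OP50 and were synchronised by bleaching. The labels give no time between hatching and collection, so temperature, elapsed time and any other difference between the cultures cannot be told apart. With 1 array per group there is no replicate error, and no test or p-value could be had. Genes were therefore called by size: 2-fold or more apart (1 on the log2 scale), with a level above the array median on either of the arrays set against each other.

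In flies and vertebrates Hedgehog proteins are secreted, cut by their own C-terminal part and joined to cholesterol, and Patched is the membrane receptor that binds them. C. elegans has no plain Hedgehog gene and no Smoothened, the usual signal transducer. It has instead an enlarged set of secreted proteins of the warthog, groundhog, ground-like and quahog kinds, and an enlarged set of patched-related membrane proteins with a sterol-sensing domain. Many of the secreted proteins are made in the epidermis and in other cells that face the cuticle, and members of both sets are needed for moulting. The gene hog-1 carries the self-cutting Hog part alone.

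On the heat shock array 15 of the 80 genes were lower than on the control array by 2-fold or more, and 2 were higher. The lower ones were grd-14, grd-5, 6 grl genes (grl-16, grl-21, grl-4, grl-7, grl-15 and grl-5), wrt-4, wrt-10, hog-1, the patched gene ptc-3 and 3 patched-related genes (ptr-18, ptr-16 and ptr-2). The higher ones were grd-3 and ptr-8. As shares these are 18.75% lower and 2.5% higher, beside 4.33% lower and 4.69% higher over all 17118 genes. On the bio-electrospray array none of the 80 was at least 2-fold apart from control, where 0.129% of all genes were higher and 0.0234% lower. The median difference of the 80 genes was −0.07 (log2, heat shock minus control) and 0.01 (bio-electrospray minus control), against −0.02 and 0.01 over all genes.

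The count of lower genes depended on how the arrays were brought to a common scale. On the 18 probe sets for hybridization spike-ins (foreign transcripts put into every assay) the median of the differences was −0.53 (heat shock minus control). Each array was then centred on the median of its own spike-in probe sets, which raised every heat shock minus control difference by 0.74. This shift is larger in size than −0.53, since a difference of medians is not the median of the differences. The median of all genes was then 0.72 (heat shock minus control). On that scale the 80 genes gave 6 lower and 4 higher by 2-fold or more, beside 1.74% lower and 15.4% higher over all genes. All 15 genes named above as lower were still lower than control then, by less than 2-fold for 9 of them. Of the 17 genes above the median on an array that were lower by between 0.1 and 1 (log2), 10 came out higher than control with spike-in centring, such as wrt-1 (0.05), wrt-6 (0.20), grl-6 (0.17) and ptr-4 (0.50), so the direction of those smaller differences depends on the scale. With probe sets whose names mark them as possibly shared between transcripts left out, 58 of the 80 genes remained. Of these 6 were lower (10.3%, against 3.5% over all genes) and 1 higher (1.72%, against 4.51%). The 9 lower genes whose probe set used was of this kind were grl-16, grl-4, grl-7, grl-5, wrt-4, wrt-10, ptc-3, ptr-18 and ptr-2. The higher gene ptr-8 was read by such a probe set too. The difference between 5′ and 3′ probe sets of the array's 5 worm control genes (5′ minus 3′, log2), a sign of RNA length, was less negative on the heat shock array than on the control array for all 5, for instance −0.16 against −0.85 for Gapdh, and its part in the results was not tested.

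**Figure D1:**
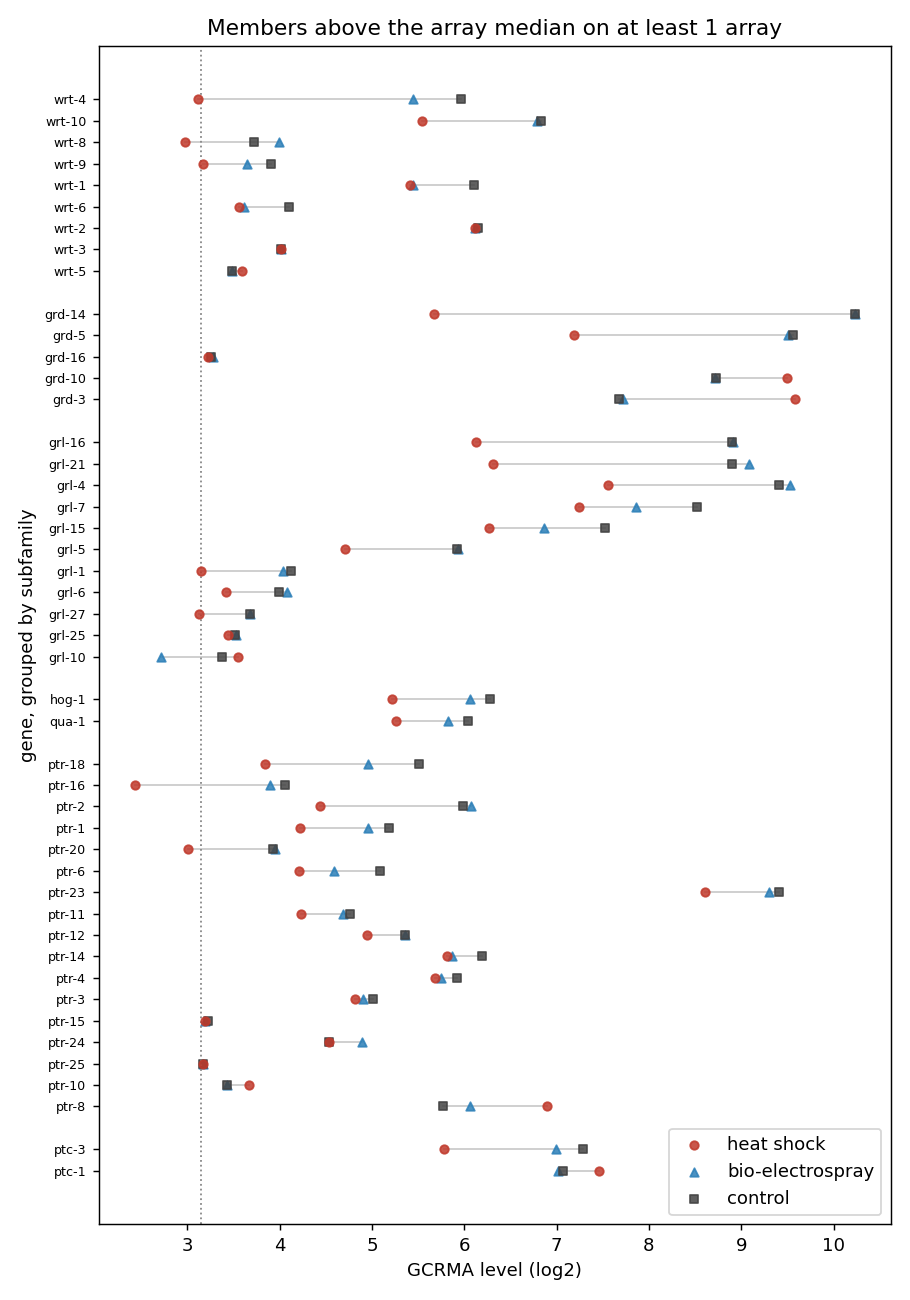
GCRMA levels (log2, x axis) of the 46 genes above the array median on at least 1 array, grouped by subfamily from wrt at the top to ptc at the bottom and, within each, ordered by heat shock minus control. Circles are heat shock, triangles bio-electrospray and squares control, 1 array each, and the dotted line is the control median (3.147). Triangles and squares lie close together for most genes, while the circle of grd-14 stands 4.56 to the left of both.

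Not all members stood above the array median, which is a cut on level and not a limit of detection. On all 3 arrays 34 of the 80 (42.5%) were below the array median, as were 47.0% of all genes. These were 19 grl, 7 grd, 7 ptr genes and wrt-7. Their differences ran from −0.65 (grd-2) to 0.03 (heat shock minus control), and the medians over all grl (−0.05) and all grd (−0.05) genes include them. A level above the array median was no proof of signal. Exactly equal values on all 3 arrays were found for 4 members, wrt-3 (4.02), ptr-25 (3.17), ptr-5 (2.79) and ptr-22 (1.99). The last, ptr-22, and ptr-5 were below the array median throughout. Such equal values are not by themselves a sign of absent signal. They also occurred at a high level, as for the intestinal marker gene act-5, at 9.98 on each array. Over the 3 comparisons 32 of the 80 genes differed by less than 0.1. For heat shock against control alone 36 of the 80 did, and 10048 of all 17118 genes, a larger share. Among those with small differences was wrt-2, which is expressed in the epidermis, at 6.11 on the heat shock and 6.11 on the bio-electrospray array, against 6.15 on the control array.

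Genes were also taken by their level on the bio-electrospray array, which has no part in heat shock against control. That array was close to the control array, with 14049 of 17118 genes within 0.1, so the choice favours genes bright without heat. It kept 738 of the 742 genes that were at least 2-fold lower and 585 of the 802 higher. The selection is therefore not removed, and it leans towards lower genes. Of 45 members above its median, 15 (33.3%) were at least 2-fold lower and 2 (4.44%) higher on the heat shock array. Over all 8511 genes so taken, 8.67% were lower and 6.87% higher.

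**Figure D2:**
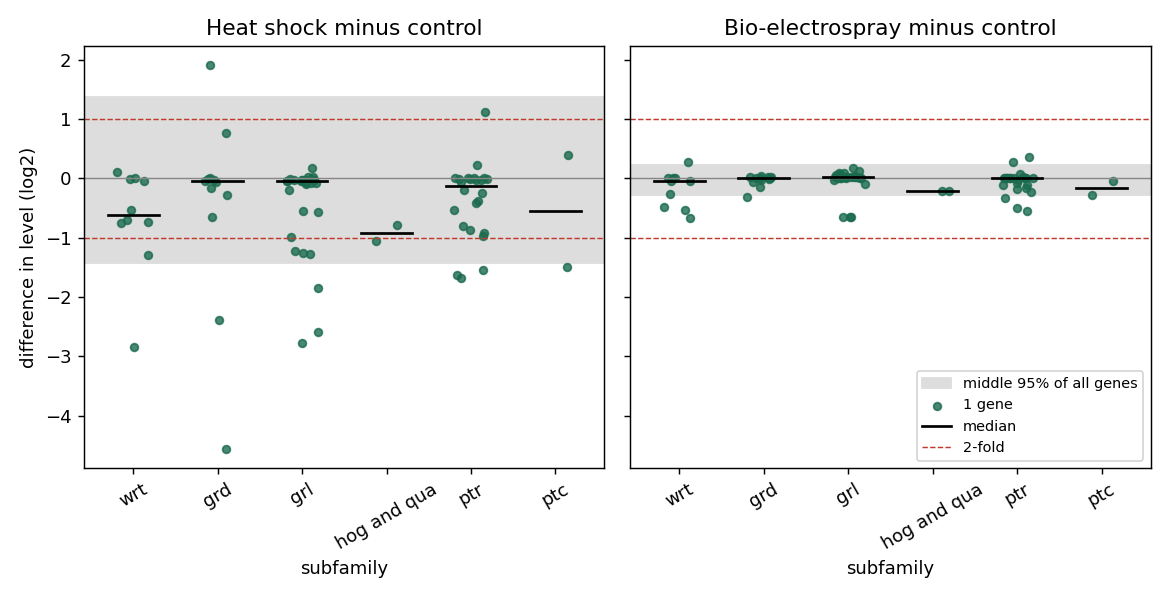
Difference in level (log2, y axis) of each of the 80 genes by subfamily, heat shock minus control on the left and bio-electrospray minus control on the right. Black bars are medians, grey bands the middle 95% of all genes and dashed lines mark 2-fold. On the left 10 genes lie below the grey band and 1 above it, and on the right 11 lie below and 3 above, none of them past 2-fold.

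Among the secreted proteins the groundhog genes went furthest in both directions. The level of grd-14 was 5.67 on the heat shock array, against 10.23 on the bio-electrospray and 10.23 on the control array, a 23.5-fold lower signal after heat. It had exactly equal values on the other two arrays. A like contrast was seen for grd-5, which stood at 7.18 on the heat shock, 9.51 on the bio-electrospray and 9.56 on the control array, 5.21-fold lower after heat than in control larvae. The opposite held for grd-3, at 9.58 on the heat shock, 7.72 on the bio-electrospray and 7.67 on the control array, 3.76-fold higher after heat. Its neighbour grd-10, whose promoter is used to mark the lateral seam cells of the epidermis, was higher by 0.77 and stayed below 2-fold, at 9.49 on the heat shock array against 8.71 and 8.72 on the bio-electrospray and control arrays. The fifth groundhog gene above the median, grd-16, differed by −0.04 (heat shock minus control). After bio-electrospray the 12 grd genes lay between −0.31 (grd-1) and 0.04 (grd-3) of control.

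Of 3 seam cell marker genes with a probe set of their own, 1 was at least 2-fold higher on the heat shock array, where 4.69% of all genes were. It was ceh-16, at 1.67 (heat shock minus control), and the other two, elt-6 (0.97) and egl-18 (0.36), did not reach 2-fold. Their mean level was 5.02 on the heat shock array, 3.96 on the bio-electrospray and 4.02 on the control array. The 7 epidermal genes split. The cuticle collagen genes dpy-5 (−2.37), rol-6 (−1.74), col-12 (−1.30) and dpy-7 (−0.91) were lower. The epidermal regulators lin-26 (1.03), elt-1 (0.84) and elt-3 (0.55) were higher. At least 2-fold lower were 3 of the 7 (42.9%) and higher 1 (14.3%), beside 4.33% and 4.69% of all genes. The mean of the list was 7.52 on the heat shock, 8.05 on the bio-electrospray and 8.07 on the control array. Whether these movements have a part in those of the grd genes was not tested. In RNA of whole larvae, fewer cells of a type and less RNA per cell cannot be told apart.

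The ground-like genes had 6 of 30 (20%) at least 2-fold lower after heat and none higher, beside 4.33% and 4.69% of all genes. Over all 80 members the share lower was 18.75%. Of the 30, 11 were above the median on an array. The level of grl-16 was 6.12 on the heat shock array, against 8.91 on the bio-electrospray and 8.90 on the control array, 6.87-fold lower after heat than in control. A similar contrast was found for grl-21, at 6.31 on the heat shock, 9.08 on the bio-electrospray and 8.90 on the control array, 6.01-fold lower after heat. In worm studies of fat storage grl-21 acts with the patched-related receptor ptr-24 downstream of the nuclear receptor nhr-25. Here ptr-24 was at 4.53 on both the heat shock and the control array and at 4.89 on the bio-electrospray array, and nhr-25 was higher by 0.67 after heat. The third gene, grl-4, was at 7.56 on the heat shock, 9.53 on the bio-electrospray and 9.41 on the control array, 3.60-fold lower after heat, and grl-5 was at 4.71 on the heat shock array against 5.94 on the bio-electrospray and 5.93 on the control array. These 4 genes were low on the heat shock array alone.

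A second group of ground-like genes was intermediate on the bio-electrospray array. The level of grl-7, which encodes a cuticle-associated protein, was 7.24 on the heat shock, 7.86 on the bio-electrospray and 8.52 on the control array. The level of grl-15 was 6.26 on the heat shock, 6.87 on the bio-electrospray and 7.52 on the control array. Relative to the same control array, grl-7 differed by −1.27 after heat and grl-15 by −1.26, and each by −0.66 after bio-electrospray. A further probe set of grl-7 gave 6.51, 7.20 and 7.63 on the heat shock, bio-electrospray and control arrays. In contrast grl-10 was low on the bio-electrospray array only, at 2.72, with 3.55 on the heat shock and 3.37 on the control array, all near the array median. Below 2-fold lay grl-1 (−0.98), grl-6 (−0.57) and grl-27 (−0.55; heat shock minus control). The genes grl-2 and grl-18, known from the excretory duct and from glia, were below the array median throughout.

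Of the 10 warthog genes 2 (20%), wrt-4 and wrt-10, were at least 2-fold lower after heat and none was higher. Over all genes 4.33% were lower and 4.69% higher. Both wrt-4 and wrt-10 were read only by a probe set marked as possibly shared. Above the median on an array were 9 of the 10. The median difference over all 10 was −0.62. It is not ranked against those of grd and grl, since 19 of 30 grl genes and 7 of 12 grd genes lay below the array median throughout, against 1 of 10 wrt genes. The warthog median was −0.47 with the mean over a gene's probe sets and 0.13 with spike-in centring. The level of wrt-4 was 3.12 on the heat shock, 5.44 on the bio-electrospray and 5.97 on the control array, 7.18-fold lower after heat than in control, with the heat shock level below that array's median of 3.189. The level of wrt-10 was 5.54 on the heat shock array, against 6.78 on the bio-electrospray and 6.83 on the control array. Its neighbour wrt-1 was about equally low on both treated arrays, at 5.41 after heat and 5.45 after bio-electrospray, against 6.11 in control. The same shape was seen for wrt-6, at 3.56 after heat and 3.61 after bio-electrospray, against 4.10 in control. The level of wrt-8 was 2.97 on the heat shock, 4.00 on the bio-electrospray and 3.72 on the control array, and wrt-9 stood at 3.17 on the heat shock, 3.65 on the bio-electrospray and 3.91 on the control array. The gene wrt-5, needed for early development, differed by 0.11 after heat and had equal values of 3.48 on the bio-electrospray and control arrays.

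Both single-gene kinds were lower after heat. The Hog-domain gene hog-1 was at 5.22 on the heat shock, 6.06 on the bio-electrospray and 6.27 on the control array, 2.08-fold lower after heat. It was the gene just inside the 2-fold limit (−1.05), with grl-1 just outside it. The quahog gene qua-1, needed for moulting, was at 5.26 on the heat shock, 5.83 on the bio-electrospray and 6.04 on the control array, a difference of −0.78 after heat that stayed below 2-fold.

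The patched proteins parted from each other. The level of ptc-3, which is needed for moulting and for water balance, was 5.78 on the heat shock, 6.99 on the bio-electrospray and 7.28 on the control array, 2.83-fold lower after heat than in control. The level of ptc-1, known for its role in germline cytokinesis, was 7.46 on the heat shock, 7.02 on the bio-electrospray and 7.07 on the control array, a difference of 0.39 after heat. A second probe set of ptc-1 read 3.47 on all 3 arrays. The germline marker genes pgl-1 (−1.39), pgl-3 (−1.87) and gld-1 (−2.34) were at least 2-fold lower after heat. These are 3 of 5 on that list (60%), beside 4.33% of all genes. The others were glh-1 (−0.61) and nos-2 (−0.05), with nos-2 below the array median throughout. The list had a mean level of 4.67 on the heat shock, 5.87 on the bio-electrospray and 5.92 on the control array. The part of these germline genes in the level of ptc-1 was not tested.

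Of the 24 patched-related genes 3 (12.5%) were at least 2-fold lower after heat and 1 (4.17%) higher, with a median of −0.13. Over all genes 4.33% were lower and 4.69% higher. The level of ptr-18 was 3.84 on the heat shock, 4.96 on the bio-electrospray and 5.51 on the control array, 3.19-fold lower after heat. The level of ptr-16 was 2.43 on the heat shock array, below its median, against 3.90 on the bio-electrospray and 4.06 on the control array. The level of ptr-2 was 4.44 on the heat shock, 6.07 on the bio-electrospray and 5.99 on the control array, but its other 2 probe sets lay below the median throughout and differed by −0.01 and −0.02 after heat. The gene ptr-8 went the other way, at 6.89 on the heat shock, 6.06 on the bio-electrospray and 5.77 on the control array, 2.18-fold higher after heat. It stayed under 2-fold with 16 added on the linear scale (0.93, log2, heat shock minus control) and against the bio-electrospray array (0.84).

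Several patched-related genes were lower by less than 2-fold. The level of ptr-23 was 8.61 on the heat shock, 9.30 on the bio-electrospray and 9.41 on the control array. Its 3 further probe sets differed in the same direction, by −0.93, −0.55 and −1.23 (heat shock minus control). Differences after heat were −0.96 for ptr-1, −0.92 for ptr-20, −0.87 for ptr-6, −0.53 for ptr-11 and −0.41 for ptr-12. A further probe set gave −0.35 for ptr-6 and −0.28 for ptr-11. Closer to control by the probe set used were ptr-4 (−0.24), whose product shapes the cuticle's precursor matrix, ptr-3 (−0.20) and ptr-10 (0.23), whose promoter marks glia. For ptr-4 a further probe set gave −0.42. The level of ptr-14 was 5.82 after heat and 5.86 after bio-electrospray, against 6.19 in control.

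**Figure D3:**
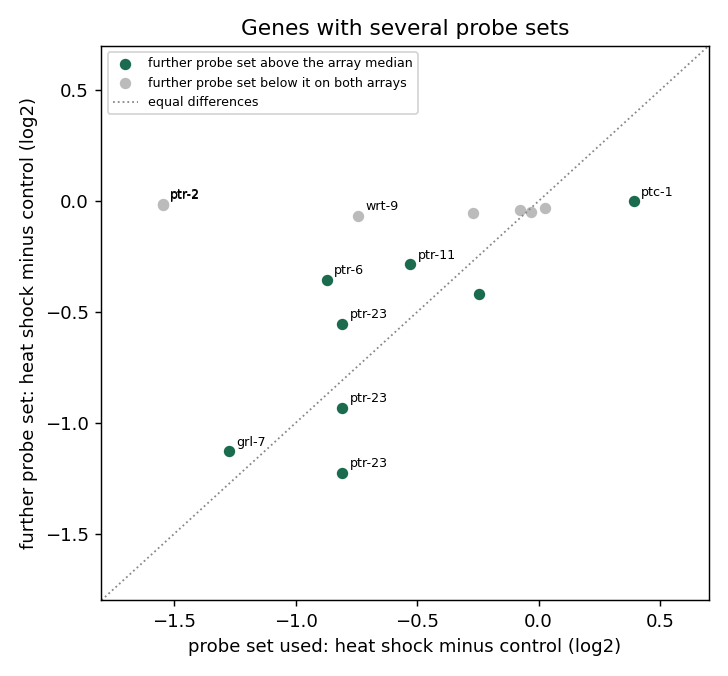
Heat shock minus control (log2) for the probe set used (x axis) and for each of the 15 further probe sets of the 12 genes that have several (y axis). Green points are further probe sets brighter than the median of either array and grey points are below it on both. The grl-7 point lies near the line of equal differences, whereas both ptr-2 points lie near 0 on the y axis.

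Differences between electrosprayed and control larvae were small. At a threshold of 1.5-fold, 4 of the 80 genes (5%) were lower than control, beside 0.292% of all genes, and none was higher, beside 0.409%. They were wrt-1 (−0.66), grl-10 (−0.66), grl-7 (−0.66) and grl-15 (−0.66). By more than 0.25, a step chosen after the values were seen, 12 of the 80 genes (15%) were lower, beside 3.36% of all genes. The further ones were ptr-18 (−0.56), wrt-4 (−0.52), ptr-6 (−0.49), wrt-6 (−0.48), ptr-14 (−0.33), grd-1 (−0.31), ptc-3 (−0.29) and wrt-9 (−0.27). This count was not limited to genes above the array median, and grd-1 lay below it on all 3 arrays. A further probe set gave 0.02 for grd-1 and 0.03 for wrt-9, against −0.28 for ptr-6 and −0.43 for grl-7. The bio-electrospray and heat shock differences are taken from the same control array, so its own deviation enters both alike. Higher by more than 0.25 were 3 of the 80 (3.75%), ptr-24 (0.36), ptr-8 (0.29) and wrt-8 (0.27), beside 2.17% of all genes. With spike-in centring the median of all genes was 0.24 (bio-electrospray minus control), and that of the 80 genes was 0.25. On that scale none of the 4 genes was 1.5-fold lower, with wrt-1 at −0.42, and 7 of the 12 were lower by more than 0.25. The 12 all had negative differences, down in size to −0.03 for wrt-9.

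Set directly against the bio-electrospray array, the heat shock array had 13 of the 80 genes at least 2-fold lower and 1 higher, as shares 16.25% and 1.25%, where 4.08% of all genes were lower and 4.64% higher. The 1 higher was grd-3 (1.87). The lower ones lacked grl-7 (−0.62), grl-15 (−0.60) and hog-1 (−0.84), and they gained wrt-8 (−1.03). The comparison uses the same heat shock array as the comparison with control.

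**Figure D4:**
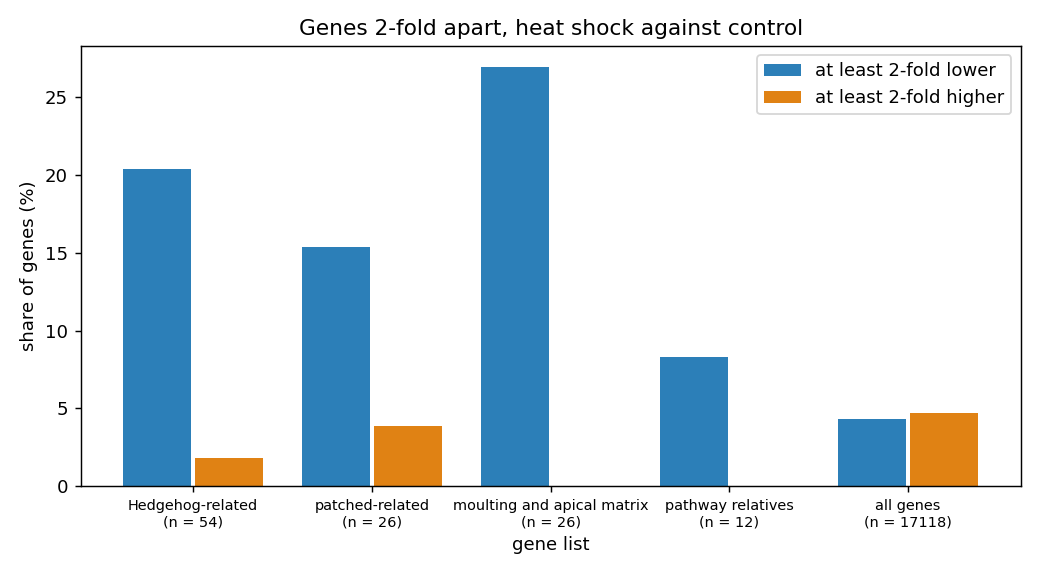
Share of genes (%, y axis) at least 2-fold lower (blue) and at least 2-fold higher (orange) on the heat shock array than on the control array, for each gene list. The Hedgehog-related genes reach 20.4% lower, the patched-related genes 15.4% and the moulting and apical matrix genes 26.9%, against 4.33% over all genes. The lists were chosen with earlier results of these data known.

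Split by the kind of protein, 11 of 54 Hedgehog-related genes (20.4%) and 4 of 26 patched-related genes (15.4%) were at least 2-fold lower after heat, and 1 of each kind was higher. The 2 kinds were not tested against each other. Other genes of moulting and of the apical matrix, which the secreted family members share as a setting, were counted too. Of these, 7 of 26 were at least 2-fold lower (26.9%) and none higher, with a median of −0.68 on the deposited scale. That list was chosen with earlier results of these data known, so its share is not independent support. Over all genes 4.33% were lower and 4.69% higher. The lower moulting genes included mlt-8 (−2.28), mlt-10 (−2.24), the protease inhibitor gene bli-5 (−1.90) and the peroxidase gene mlt-7 (−1.63). Counting differences of any size, 19 of the 26 were lower after heat, 5 higher and 2 equal. Among the higher were nhr-25 (0.67), nekl-3 (0.56), nekl-2 (0.50) and lrp-1 (0.32). On the bio-electrospray array none of the 26 was 2-fold apart and the median was −0.12. The astacin protease gene nas-37 repeated the shape of wrt-1, at 2.91 after heat and 2.95 after bio-electrospray, against 3.82 in control. The transcription factor gene nhr-23, a driver of moulting genes, differed by 0.17 after heat.

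Genes related to the pathway by sequence or function outside these names went both ways. Of 12 such genes 1 was at least 2-fold lower after heat (8.33%, beside 4.33% of all genes) and none higher (beside 4.69%), with a median of −0.01 over values of both signs. The 1 lower was the glypican gene gpn-1, at 3.20 on the heat shock array against 4.32 on the bio-electrospray and 4.31 on the control array. The transcription factor gene tra-1, of the family of the fly and vertebrate Hedgehog effectors, differed by −0.64. Smaller differences were found for the patched-related gene daf-6 (−0.32), the Dispatched-related gene che-14 (−0.03) and the sterol transporter gene ncr-1 (−0.01). Higher by less than 2-fold were hmgr-1 (0.67), the sterol pathway gene for HMG-CoA reductase, hhat-2 (0.62), the sex determination gene tra-2 (0.60), scp-1 (0.32) and the second glypican gene lon-2 (0.29).

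By gene order in the RefSeq table (WBcel235), some members lie side by side, and those above the array median shared a direction after heat on the deposited scale. The neighbours grd-3 and grd-10 were both higher after heat (1.91 and 0.77), and wrt-10 and wrt-1 both lower (−1.29 and −0.69). After bio-electrospray wrt-1 differed by −0.66 and wrt-10 by −0.05. A run of grl-28, grl-29, grl-30 and grl-31 lay below the array median on all 3 arrays, with differences after heat between −0.05 and −0.02, and so did the neighbours grl-9 (0.02) and grl-8 (−0.02).

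As a check of the labels, the small heat shock gene hsp-16.2 was at 9.55 on the heat shock array against 3.54 on the bio-electrospray and 3.03 on the control array. The adult markers vit-2, vit-6 and col-19 lay between 2.90 and 3.26 on the 3 arrays, near or below the medians of 3.189, 3.157 and 3.147 (heat shock, bio-electrospray and control). Body wall muscle genes, 5 of 5 above the median, averaged 10.30 on the heat shock, 10.33 on the bio-electrospray and 10.35 on the control array. Neuronal genes averaged 6.28 on the heat shock, 5.42 on the bio-electrospray and 5.52 on the control array. Of these 1 of 6 (16.7%) was at least 2-fold higher after heat, beside 4.69% of all genes. The number of arrays limits the precision of every value.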

How the data were processed

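Total RNA of 3 larval samples (200 ng each) was amplified, biotinylated and read on Affymetrix arrays, per the labels' protocols. The authors deposited log2 levels made with GCRMA, per the submitters' processing notes; its version and options are not given in the sources used here, and the log2 scale was taken from the range of values. GCRMA removes background and normalizes between arrays, which leaves a floor under dim genes and many equal values.

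The platform annotation named 20766 of 22625 probe sets with 1 gene symbol. The probe set with the highest mean over the 3 arrays stood for a gene, and all 80 members matched the RefSeq gene table by gene ID. Levels were subtracted over the whole table and counted at a log2 difference of 1 and above the median (percentile 50) on at least 1 array compared. Counts are over all members, beside all genes. All members could be named; levels on the 3 arrays are given for those 2-fold apart in any comparison and for the 3 per subfamily with the highest mean level or the largest heat shock difference. Some others were chosen after their values were seen. The members and lists were chosen with earlier results of these data known. Of the list genes hhat-1, bus-8, nhr-73 and nhr-74 had no probe set of their own, and glia, intestine and pharynx lists are given in the closing section. Protein and promoter sequences were not used here. The counting step was tested on simulated data. The number of columns of no sample was 0.

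Alternatives were quantile, median, loess (span 0.3) and spike-in centring, level filters, an offset of 16 on the linear scale, the choice of probe sets and thresholds of 1.5-fold and 3-fold. Python 3.11.15, numpy 2.4.6, pandas 2.3.3, scipy 1.17.1, statsmodels 0.14.6 and matplotlib 3.10.9 were used.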

Additional observations from a re-analysis of the deposited data

How the results depend on the processing

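Heat shock against control gave 15 lower and 2 higher of 80 members, and both counts stayed within 1.5 times under quantile, median and loess centring, the 3 planned level filters, the mean over probe sets and the highest single value. Spike-in centring gave 6 lower and 4 higher, and medians of 0.67 (all members), 0.13 (wrt), 0.69 (grd), 0.69 (grl), −0.17 (hog and qua), 0.61 (ptr) and 0.19 (ptc), since it raises all heat shock differences. It gave 7 lower (8.75%) and 4 higher (5%) against bio-electrospray, beside 2.17% and 10.97% of all genes. It also gave a median of 0.25 for bio-electrospray against control, and reversed the small bio-electrospray differences of grd-5 (0.18), hog-1 (0.027), ptr-16 (0.078) and wrt-10 (0.19). Without shared probe sets, which leaves 58 members, 6 were lower (10.3%) and 1 higher (1.72%) than control, beside 3.50% and 4.51% of all genes. Against bio-electrospray 4 (6.90%) were lower, beside 3.25%. The medians of hog and qua (−1.05, hog-1 alone) and ptc (0.39, ptc-1 alone) then each rested on 1 gene. The offset of 16 left grl-5 (−0.87), hog-1 (−0.81), ptr-16 (−0.61) and ptr-8 (0.93) under 2-fold against control, so 1 was higher, and gave medians of −0.27 (wrt) and −0.70 (hog and qua). The mean over probe sets gave −0.47 for wrt. At 1.5-fold, 24 members (30%) were lower than control, beside 7.90% of all genes. Against bio-electrospray 21 (26.25%) were lower and 4 (5%) higher, beside 7.45% and 9.58% of all genes. After bio-electrospray 4 (5%) were apart from control, all lower, beside 0.292% of all genes. At 3-fold, 8 (10%) were lower and 1 (1.25%) higher than control, beside 2.11% and 1.89%. Against bio-electrospray 7 (8.75%) were lower at 3-fold, beside 1.94%. Filtering on the array outside the comparison was added after seeing the data. Of the 17 members 2-fold apart from control after heat, 13 stayed so with the offset and 8 with spike-in centring, all in the same direction. A level near the floor limits a fold, as for ptr-16 and wrt-4, which the filter on both arrays leaves out. No paired analysis was possible because each group has 1 array.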

Other observations

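Of the further tissue lists, the 5 pharyngeal genes had a median of −0.18 (heat shock minus control), with myo-1 (−1.29) the 1 at least 2-fold lower (20%). Among 6 intestinal genes cpr-6 (−1.996) and ges-1 (−1.38) were at least 2-fold lower (33.3%), around a median of −0.06. Over all genes 4.33% were lower. None of 4 glial genes was 2-fold apart (median −0.05). Body wall muscle genes had a median of −0.11 and neuronal genes one of 0.73.

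A pair of probe sets read several genes at once and enters no comparison above. The probe set shared by ptc-1 and the pseudogene ptc-2 was at 2.65 on the heat shock array, 2.51 on the bio-electrospray and 2.49 on the control array, below the median of each. The probe set shared by grl-32, T24A6.1 and T07F10.5 read 3.36 on all 3 arrays.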
